A study of Mus musculus with 10 samples.

Results

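Interferon response and antigen presentation genes were followed on the 10 arrays of a study of FGF5 in mouse spermatogonia. The 38 genes were listed by symbol, and each was read from the brightest probe carrying that symbol, by the mean log2 signal over all arrays, among the 55681 probes of the array that are not controls. All 38 symbols were found. They form 3 groups that were described apart: 25 genes of the type I interferon response, 7 GTPase genes (3 guanylate binding protein, or Gbp, genes and 4 immunity-related GTPase, or IRG, genes) and 6 genes of MHC class I presentation.

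Interferons are secreted proteins that signal through paired receptors, JAK kinases and STAT transcription factors. Type I interferons act through a complex that holds STAT2 and IRF9 and binds the interferon-stimulated response element (ISRE), while interferon gamma acts through the gamma-activated site (GAS). The genes so induced include sensors of foreign RNA and DNA (Ifih1, Ddx58, Zbp1), antiviral effectors (the Ifit, Oas and Mx genes, Rsad2, Bst2), feedback regulators (Usp18), GTPases that act on the vacuoles of intracellular pathogens, and the peptide supply, transporter and heavy chains of MHC class I. Stem cells of several tissues express a part of these genes without any added interferon.

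Groups compared were as follows. Germline stem (GS) cells, a culture of self-renewing spermatogonia that the methods derive from crosses of C57BL/6 with ICR mice and the labels give as wild-type C57BL/6, were kept for 3 days without FGF2 and GDNF, and then for 24 hr with 100 ng/mL FGF5 (n = 2) or without FGF5 (n = 2). GFRα1+ spermatogonia were sorted by FACS as the GFP+ fraction of 2.5-month-old Gfrα1-GFP mice on a C57BL/6 background, either wild-type (WT, n = 3) or Fgf5-/- (n = 3), so that both sorted groups carried the reporter. Each sample was RNA labelled with Cy3 on 1 Agilent array, and the labels name no interferon treatment. Nothing in the labels says whether samples of a group came from separate cultures or animals, so p-values measure the spread between these samples, which may be technical.

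Promoter windows of the members were searched for both elements. In the RefSeq table of GRCm38.p6 promoter windows, which run from 250 bases before to 50 bases after a gene's start, 30 of the 38 members had at least 1 window. The ISRE core, searched as GAAANNGAA and its reverse complement TTCNNTTTC, was in windows of 18 of the 30 members (60%), against 9.76% of 27025 genes. The GAS core TTCNNNGAA, which reads the same on both strands, was in windows of 7 members (23.3%), against 9.55% of all genes. A match is of letters only and shows no binding. The 5 GTPase genes with a window all held an ISRE core, as did 12 of 19 type I genes and 1 of 6 MHC class I genes. No window was listed for Gbp6, Iigp1, Mx1, Mx2, Oas2, Parp14, Usp18 or Zbp1. Stretches upstream of the start are shown for 6 members that the results below turn on or that show the plain form of an element, written 5′ to 3′ on the gene's strand, with the matched cores in capitals.
Isg15 (chr4:156200846-156200926, minus strand, 3 overlapping ISRE cores): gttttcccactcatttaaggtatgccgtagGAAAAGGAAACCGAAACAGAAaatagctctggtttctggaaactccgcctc
Gbp3 (chr3:142559970-142560043, plus strand, 2 overlapping ISRE cores): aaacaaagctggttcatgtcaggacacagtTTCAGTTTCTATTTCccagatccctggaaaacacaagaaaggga
Ifih1 (chr2:62646329-62646397, minus strand, 1 ISRE core): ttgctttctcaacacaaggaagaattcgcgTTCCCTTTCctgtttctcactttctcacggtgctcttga
Igtp (chr11:58199481-58199555, plus strand, a GAS core and then an ISRE core): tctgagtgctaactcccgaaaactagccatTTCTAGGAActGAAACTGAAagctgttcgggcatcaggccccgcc
B2m (chr2:122147518-122147586, plus strand, 1 ISRE core): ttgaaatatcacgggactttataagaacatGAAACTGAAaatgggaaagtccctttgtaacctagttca
Irf1 (chr11:53769894-53769962, plus strand, 1 GAS core): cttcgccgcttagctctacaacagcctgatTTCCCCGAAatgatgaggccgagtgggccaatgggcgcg
Ifih1 holds a further ISRE core after its start, which is not shown.

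Signals are given as log2 of the background-subtracted signal minus the array's 75th percentile, so that 0 is that percentile and a difference of 1 is 2-fold. Levels were compared between arrays for 1 probe and never between probes. A probe is called detected where the scanner software marked it well above background. Between 55.2% and 65.9% of probes were detected on an array, and precision is limited by how few arrays a group has. The germ cell genes Ddx4, Dazl and Zbtb16 were bright on all 10 arrays (4.53 to 6.00), as in the germ cells that the labels name. Fgf5 itself was detected on 1 of the 6 sorted arrays, and this was the array labelled Fgf5-/- replicate 1 (-3.42, against -6.83 and -6.90 on the other Fgf5-/- arrays and -6.66 to -5.47 in WT). Whether its probe lies in the deleted part of the gene was not given in the sources used here, so this level leaves the label unchecked. That array also had the highest share of probes detected, and median differences and the main members in sorted cells are therefore also given without it.

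**Figure D1:**
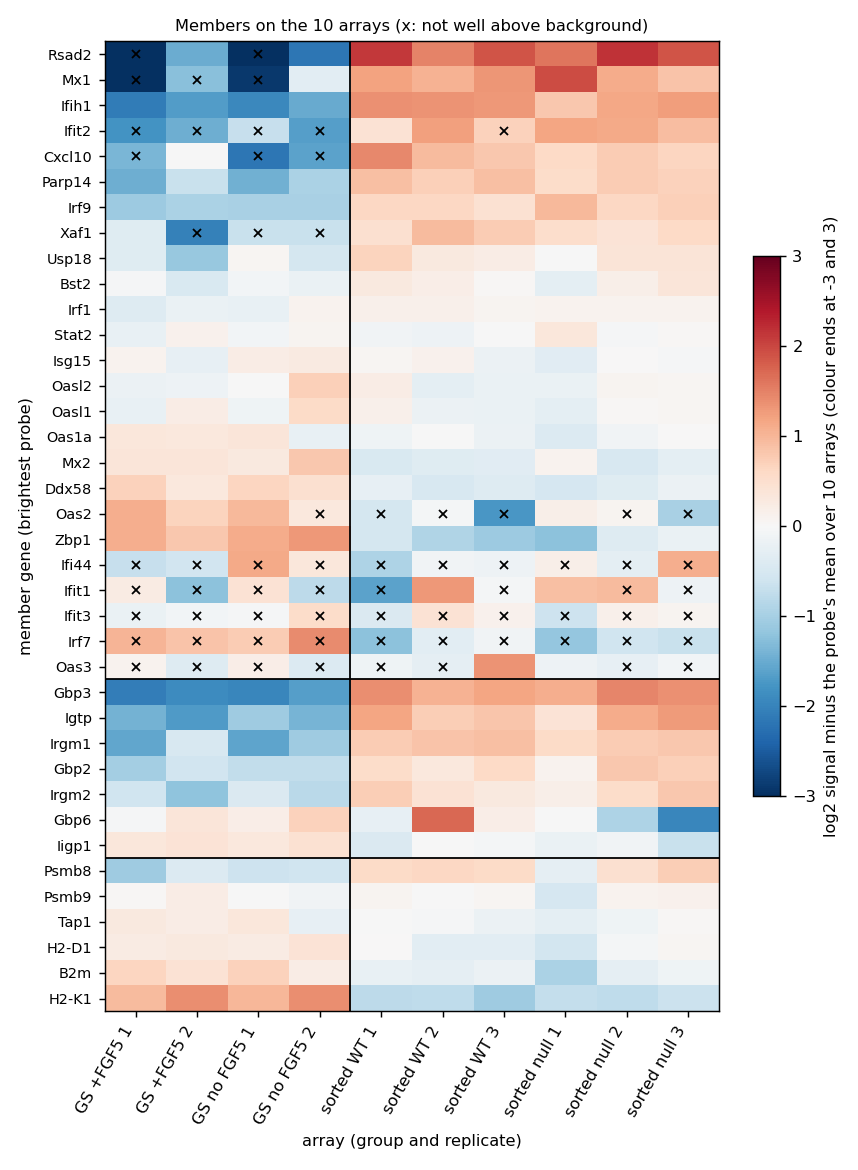
Heat map of the 38 members (rows, brightest probe, in their 3 groups) on the 10 arrays (columns), as log2 signal minus the probe's own mean over the arrays; crosses mark spots not well above background. The main contrast lies between the 4 cultured and the 6 sorted arrays, and Gbp6 is the member with the widest spread within the sorted arrays.

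Of the 38 members, 27 were detected on all 10 arrays, among them all 7 GTPase genes and all 6 MHC class I genes. The type I group was mixed. Ifit3, Irf7 and Ifi44 were detected on 0 of 10 arrays. Ifit1 and Oas3 were detected on 2 sorted arrays and 0 cultured arrays each, and Ifit2 on 5 of 6 sorted arrays and 0 of 4 cultured ones. Irf7 and the Ifit genes were thus at or near background on most arrays, whereas Irf1, Oasl2, Stat2, Isg15 and Bst2 gave clear signals throughout. Rsad2 and Mx1 were detected on all 6 sorted arrays, and on 2 and 1 of the 4 cultured ones. In bulk RNA, fewer cells expressing a gene and less RNA per cell cannot be told apart.

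No member passed the test for an effect of FGF5 on GS cells. limma called 0 of the 28 members tested, against 0 of 34608 probes (0%), and 0 members had an unadjusted p under 0.05, against 2.55% of all probes. None of the 28 differed 2-fold. The differences ran from -0.51 (Usp18) to 0.32 (Irgm1), with a median standard error of 0.23. The 95% interval of the difference lay within 2-fold on either side for 21 of the 28 members (75%), against 79.9% of all probes. Arrays with and without FGF5 did not overlap for 5 members (17.9%), against 22.7% of all probes. These 5 were Isg15, Oasl2, Zbp1 and Igtp, lower with FGF5, and Psmb9, higher.

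Among the type I genes the median difference was -0.17 over 15 tested, against -0.03 over all probes. Irf1, a transcription factor of both interferon pathways, was at 4.82 and 5.02 with FGF5 and at 4.97 and 5.31 without. The groups overlapped. Oasl2, a member of the oligoadenylate synthetase family, was at 3.03 and 3.07 with FGF5 and at 3.19 and 3.91 without, and most of its difference came from replicate 2 without FGF5. Stat2, the STAT protein particular to the type I and type III pathways, was at 2.19 and 2.52 with FGF5 and at 2.33 and 2.49 without. Isg15, a ubiquitin-like protein that is attached to other proteins, was at 0.16 and -0.21 with FGF5 and at 0.26 and 0.32 without. Its difference was -0.31 with a 95% interval from -0.83 to 0.20.

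The GTPase genes had a median difference of -0.18 over 7. Igtp (Irgm3), an IRG protein of the endoplasmic reticulum, was at 0.11 and -0.17 with FGF5 and at 0.46 and 0.13 without, a difference of -0.32 (95% interval -0.88 to 0.23). Gbp3 was at -0.85 and -0.69 with FGF5 and at -0.75 and -0.44 without. Gbp2 was at -0.06 and 0.38 with FGF5 and at 0.22 and 0.21 without. Both overlapped between the groups. Irgm1 had the largest positive difference of the members and also a wide spread, at -1.48 and -0.41 with FGF5 and -1.52 and -0.998 without. Its replicates numbered 1 were lower than both numbered 2.

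The MHC class I genes had a median difference of 0.04 over 6, and all 6 intervals lay within 2-fold. B2m, the invariant light chain of MHC class I, was at 2.57 and 2.36 with FGF5 and at 2.60 and 2.13 without. H2-K1, a heavy chain, was at 2.44 and 2.87 with FGF5 and at 2.47 and 2.86 without. H2-D1, another heavy chain, was at 1.53 and 1.59 with FGF5 and at 1.53 and 1.69 without. For H2-K1 the arrays agreed by replicate number more closely than by treatment.

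Other genes of the pathway were listed as ligands, receptors with their kinases and STATs, sensors and adaptors, further interferon-stimulated genes, further GTPases and further antigen presentation genes. Of 105 symbols 99 were on the array, and 84 were tested in the culture comparison. limma called 0 of the 84, and 3 had an unadjusted p under 0.05. Ifnar2, a subunit of the type I interferon receptor, and Aim2, a sensor of cytosolic DNA, were the 2 that differed at least 2-fold. Ifnar2 was at -0.66 and -0.55 with FGF5 and at -1.23 and -2.51 without, a difference of 1.27 with a 95% interval from 0.09 to 2.46 and an adjusted p of 1. Its groups did not overlap. Aim2 was at -3.17 and -3.02 with FGF5 and at -3.62 and -6.72 without, the last of these at background. Among the ligand genes, Ifnb1, Ifnk and Ifng were detected on 0 of 10 arrays. Ifnl3, a type III interferon, was detected on all 10. The type I interferon genes Ifna1, Ifna2 and Ifnab were detected on all 4 cultured arrays and on 5, 1 and 4 of the 6 sorted arrays.

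Cultures with the same replicate number resembled each other in a few pathway genes. The mean of the replicates numbered 1 and that of the replicates numbered 2 differed at least 2-fold for 0 of 28 members, 8 of 84 pathway genes (9.52%) and 3.90% of all probes tested. The widest such gaps, chosen after the values were seen, were 3.50 for Ifi27l2a, a mitochondrial interferon-stimulated gene, and 2.26 for Ifitm2, which encodes a membrane protein that hinders virus entry. Ifitm2 was at 2.92 and 0.63 with FGF5 and at 2.90 and 0.66 without.

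**Figure D2:**
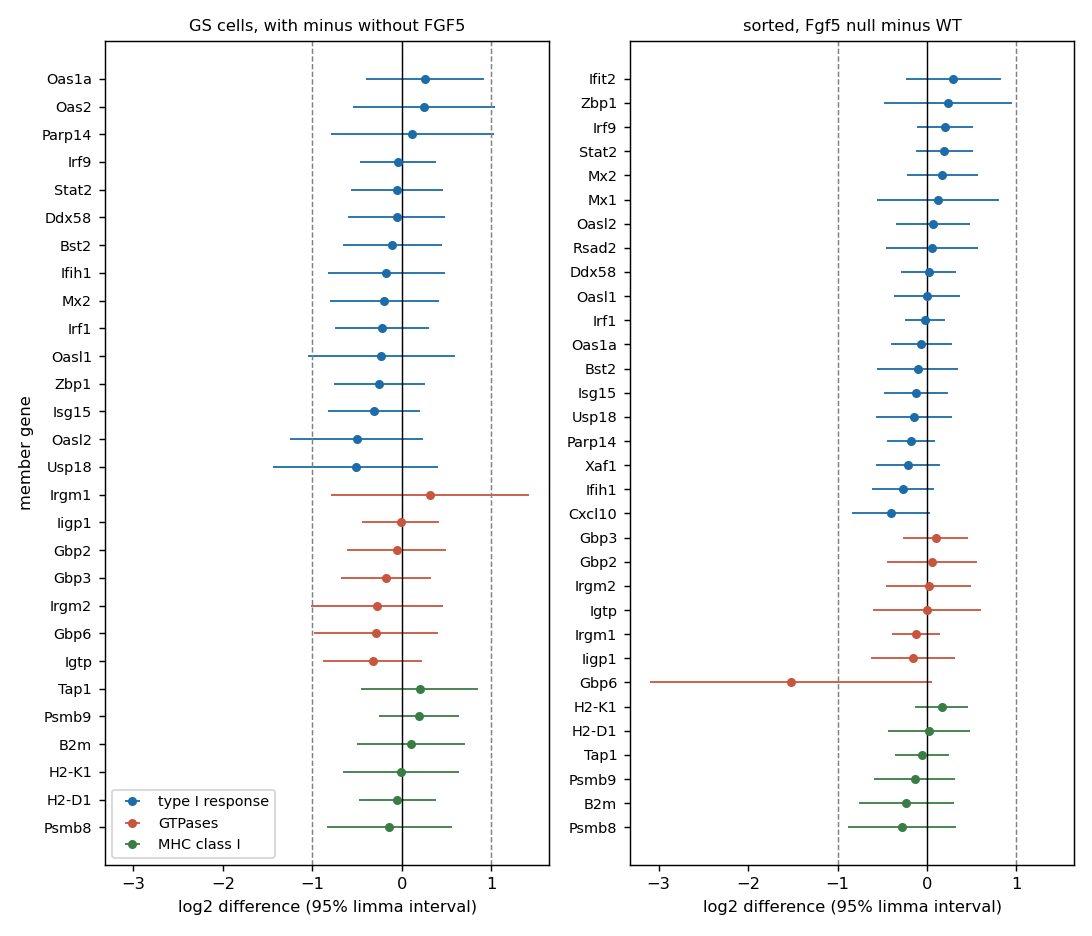
Log2 difference of each tested member with its 95% limma interval, for GS cells with minus without FGF5 (left, n = 2 and 2) and sorted Fgf5-/- minus WT cells (right, n = 3 and 3); dashed lines mark 2-fold, and colours the 3 groups of members. All points but Gbp6 in the sorted cells lie within 2-fold.

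In sorted GFRα1+ cells of Fgf5-/- testes compared to WT, again no member passed. limma called 0 of the 32 members tested, against 0 of 30283 probes (0%), and 0 members had an unadjusted p under 0.05, against 6.79% of all probes. The 95% interval lay within 2-fold for 31 of the 32 members (96.9%), against 87.6% of all probes, and Gbp6 was the exception. Groups did not overlap for 2 members (6.25%), against 16.2% of all probes. These were Ifih1 and Cxcl10, both lower in Fgf5-/-. Of the 79 pathway genes tested, 0 were called and 6 had an unadjusted p under 0.05.

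Median differences were 0.00 for 19 type I genes, 0.00 for the GTPase genes and -0.10 for the MHC class I genes, against -0.03 for all probes. Without the array labelled Fgf5-/- replicate 1 they were 0.06, 0.19 and 0.05, limma again called 0 members, and the differences of all members but Gbp6 ran from -0.37 (Cxcl10) to 0.55 (Zbp1). Irf1 was at 5.35, 5.35 and 5.29 in WT and at 5.30, 5.32 and 5.32 in Fgf5-/-. Its difference was -0.02 with a 95% interval from -0.24 to 0.20. Oasl2 was at 3.43, 2.91 and 3.00 in WT and at 3.00, 3.28 and 3.27 in Fgf5-/-. Stat2 was at 2.31, 2.26 and 2.39 in WT and at 2.74, 2.37 and 2.43 in Fgf5-/-, where the highest value was that of the array labelled replicate 1. Ifih1, which encodes the RNA sensor MDA5, was at 1.50, 1.47 and 1.42 in WT and at 0.92, 1.27 and 1.38 in Fgf5-/-. The Fgf5-/- values all lay below those of WT, and the difference was -0.27 (95% interval -0.61 to 0.07, adjusted p = 0.748) or -0.13 without the array labelled Fgf5-/- replicate 1. Cxcl10, a chemokine that attracts T cells, was at -2.61, -3.11 and -3.25 in WT and at -3.45, -3.31 and -3.42 in Fgf5-/-. The difference was -0.40 (95% interval -0.84 to 0.03, adjusted p = 0.732) and -0.37 without that array.

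Gbp6 was the only member with a 2-fold difference in either comparison. Its brightest probe (NM_194336; chromosome 5 of mm9, 105700056 to 105700115) was at -0.90, 1.09 and -0.46 in WT and at -0.66, -1.56 and -2.60 in Fgf5-/-. WT replicate 2 stood highest and Fgf5-/- replicate 3 lowest, and the groups overlapped at the array labelled Fgf5-/- replicate 1. The difference was -1.52 (95% interval -3.09 to 0.06, adjusted p = 0.728). It was -0.93 without WT replicate 2 and -1.99 without the array labelled Fgf5-/- replicate 1. A second Gbp6 probe (105702128 on the same chromosome) gave a difference of opposite sign. It was at -2.35, -3.21 and -3.09 in WT and at -2.80, -2.68 and -2.13 in Fgf5-/-, a difference of 0.35 (95% interval -0.33 to 1.03). The order of the arrays was not the same on the probes.

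Gbp6 is on the chromosome of Fgf5, with 6.99 Mb between the starts of the 2 probes, and so are 5 other Gbp genes of the array, at 6.74 to 7.05 Mb from the Fgf5 probe. The member Cxcl10 lies nearer, at -5.93 Mb, before the Fgf5 probe. The members Oasl1, Oasl2, Oas1a, Oas2 and Oas3 are on this chromosome too, at 16.7 to 22.6 Mb. Gbp11 was at -3.25, -3.91 and -3.56 in WT and at -2.66, -3.02 and -2.72 in Fgf5-/-. All Fgf5-/- arrays were higher, by 0.78 on average (95% interval 0.30 to 1.25), with an unadjusted p of 0.00655 and an adjusted p of 0.728 by limma. Without the array labelled Fgf5-/- replicate 1 the difference was 0.71. Gbp9 differed by 0.24, also without overlap, and Gbp10 by -0.24. Gbp4 and Gbp8 were detected on 0 sorted arrays. Of the Gbp genes on chromosome 3, Gbp2 differed by 0.06, Gbp3 by 0.10, Gbp5 by -0.02 and Gbp7 by 0.20, and Gbp1 was detected on 0 sorted arrays. Gbp5 varied widely within both groups, at 0.05, 1.56 and 0.74 in WT and at 1.78, 0.43 and 0.08 in Fgf5-/-. Its lowest arrays, WT replicate 1 and Fgf5-/- replicate 3, were also the lowest of their groups for the brightest Gbp6 probe. On the second Gbp6 probe these arrays were the highest of their groups. These genes are close copies of one another, and whether their probes tell them apart was not tested.

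**Figure D3:**
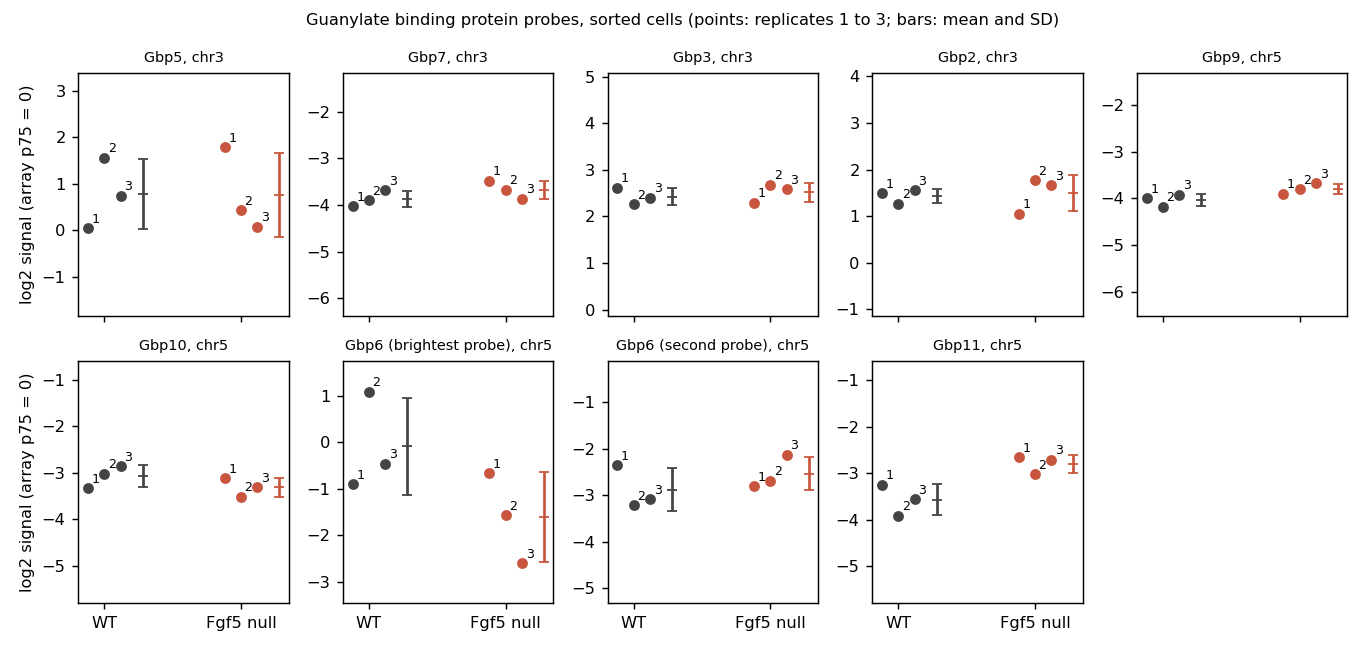
Log2 signal of every guanylate binding protein probe detected on all 6 sorted arrays, for WT and Fgf5-/- cells; points are replicates 1 to 3 and bars the mean and SD, and each panel spans the same range. The brightest Gbp6 probe and Gbp5 spread widely within groups, and Gbp11 is higher on all Fgf5-/- arrays.

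Several MHC class I genes had a low value on 1 of the Fgf5-/- arrays. Of the 31 members detected on all 6 sorted arrays, 19 (61.3%) were lowest on the array labelled Fgf5-/- replicate 1, and so were 39.2% of all 28492 such probes. For the MHC class I group this array was lowest for 5 of 6 genes, and Fgf5-/- replicate 3 was highest for all 6, as it was for 16% of all probes. Among 19 further antigen presentation genes detected on these arrays, the array labelled replicate 1 was lowest for 9 and replicate 3 highest for 6. B2m was at 1.69, 1.65 and 1.74 in WT and at 0.96, 1.65 and 1.79 in Fgf5-/-. Psmb9, a subunit of the immunoproteasome that cuts peptides for MHC class I, was at 1.36, 1.25 and 1.33 in WT and at 0.76, 1.36 and 1.40 in Fgf5-/-. Psmb8, another such subunit, was at -1.90, -1.84 and -1.89 in WT and at -2.73, -1.99 and -1.74 in Fgf5-/-. In these genes a single array lay far below 5 close values. H2-D1 followed less closely, at 1.30, 0.98 and 0.96 in WT and at 0.75, 1.23 and 1.34 in Fgf5-/-. H2-K1 did not, at 0.69, 0.72 and 0.40 in WT and at 0.77, 0.71 and 0.83 in Fgf5-/-. Without that array the difference of B2m moved from -0.23 to 0.02, that of Psmb9 from -0.14 to 0.07 and that of Psmb8 from -0.28 to 0.01. Igtp was at 2.71, 2.27 and 2.36 in WT and at 1.92, 2.63 and 2.79 in Fgf5-/-, and its difference moved from 0.00 to 0.27 without that array. Gbp3 was at 2.61, 2.26 and 2.40 in WT and at 2.30, 2.68 and 2.59 in Fgf5-/-, and Gbp2 at 1.50, 1.26 and 1.55 and at 1.05, 1.77 and 1.67. For most lists of markers of other cells, though not for fibroblasts, the summed signal was low on the same array. The log2 of the summed signal of markers detected on all sorted arrays was 0.40 there and 0.99 to 1.32 on the other 5 for 4 macrophage markers, 1.43 and 1.79 to 2.05 for 5 T and NK cell markers, 1.47 and 2.05 to 2.33 for 6 endothelial markers, 4.85 and 5.35 to 5.51 for 6 Sertoli markers, and -1.30 and 0.19 to 0.95 for 2 Leydig markers. It was -0.55 and -0.49 to -0.02 for 3 peritubular markers, and 5.29 and 5.17 to 5.46 for 7 fibroblast markers. Single markers were lowest on that array in 2 of 4 (macrophage), 4 of 5 (T and NK cell) and 2 of 6 (endothelial). For the Sertoli, Leydig, peritubular and fibroblast lists these counts were 2 of 6, 1 of 2, 2 of 3 and 1 of 7. The share over all probes was 39.2%. Several sums rest largely on 1 bright marker. Kdr (endothelial) was at 0.81 there and at 1.60 to 2.04 on the other sorted arrays. For Ctsl (Sertoli) these values were 4.60 and 5.18 to 5.32, and for Cyp17a1 (Leydig) -1.64 and 0.10 to 0.88. Csf1r, from the macrophage list, was at -1.87 on that array and at -0.33 to 0.20 on the other sorted arrays. It was higher in GS cells, at 1.23 to 1.58. Mrc1 was also lowest on that array, while Cd68 and C1qb were lowest on WT replicate 1. Of 12 markers of undifferentiated spermatogonia, 9 were also lowest on that array. The part of other cells in these low values was not tested.

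**Figure D4:**
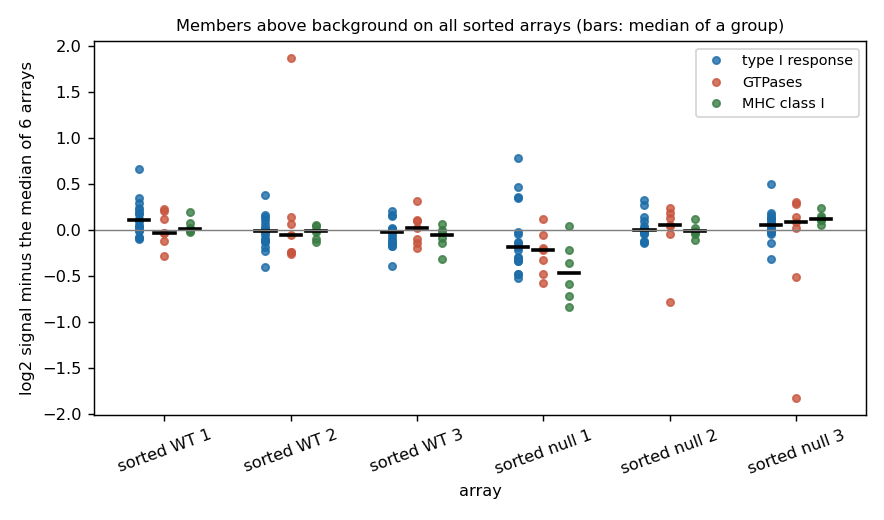
Log2 signal of the 31 members detected on all 6 sorted arrays, minus the member's median over these arrays, by array; points are genes and black bars the median of each group of members. On the array labelled Fgf5-/- replicate 1 the medians are -0.18 (type I), -0.22 (GTPases) and -0.47 (MHC class I).

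Cultured and sorted cells differed far more than either pair of groups. The 4 cultured and the 6 sorted arrays were fitted together, and the mean of the culture groups was set against that of the sorted groups. Of 33 members tested, limma called 16 lower in culture (48.5%) and 8 higher (24.2%), against 25.7% and 41.9% of 35823 probes. All probes had a median difference of 0.26 on this scale. The cultured and sorted samples were hybridized on 1 slide each, and they also differ in mouse background, culture, reporter and sorting, so these and the slide cannot be told apart as the source of any difference below.

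The GTPase genes differed the most as a group. Of 7, 5 were lower in culture (71.4%, against 25.7% of all probes) and 1 higher (14.3%, against 41.9%), with a median of -1.28. Gbp3 (NM_018734; chromosome 3 of mm9, 142236032 to 142236091) was at -0.85, -0.69, -0.75 and -0.44 in GS cells, against 2.26 to 2.68 in sorted cells. It was 8.91-fold lower in culture (log2 difference -3.16, SE 0.13, adjusted p = 8.9e-07). Igtp was at -0.17 to 0.46 in culture and at 1.92 to 2.79 in sorted cells, 4.98-fold lower (SE 0.19, adjusted p = 2.4e-05). Irgm1 was 3.86-fold lower, Gbp2 2.43-fold and Irgm2 2.39-fold. None of these 5 overlapped between cultured and sorted arrays. Irgm1 and Irgm2 belong to the regulatory IRG proteins that restrain the effector IRGs. Iigp1 (Irga6), such an effector, was the 1 that was higher in culture, by 0.63. Gbp6 overlapped and was not called (adjusted p = 0.36). Of the other Gbp genes, Gbp7 was at background on all 4 cultured arrays and at -4.03 to -3.47 in sorted cells, at least 2.19-fold lower in culture, while Gbp9, Gbp10 and Gbp11 were 2.17-fold, 2.38-fold and 3.83-fold higher. Gbp5 was not called by its brightest probe (log2 difference 0.77, adjusted p = 0.1), and a second probe, detected on 4 cultured and 2 sorted arrays, was 2.79-fold higher in culture (adjusted p = 0.00869). Gbp2, Gbp3 and Gbp7, lower in culture, are neighbours on chromosome 3, where Gbp5 also lies, and Gbp9, Gbp10 and Gbp11 are neighbours on chromosome 5.

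Of 20 type I genes tested, 10 were lower in culture (50%, against 25.7% of all probes) and 4 higher (20%, against 41.9%). A further 6 were not called, and the median of the 20 was -0.31. Of the 14 detected on all 10 arrays, 5 were lower (35.7%) and 3 higher (21.4%), against 29.8% and 36.2% of the 27223 probes detected on all 10. Their median was 0.0582, close to the 0.0813 of those probes. The other 6 tested were at background on some arrays. Ifih1 (NM_027835; chromosome 2, 62435507 to 62435566) was at -1.99, -1.55, -1.81 and -1.39 in GS cells and at 0.92 to 1.50 in sorted cells. It was 8.05-fold lower in culture (log2 difference -3.01, SE 0.15, adjusted p = 2.1e-06). Ddx58, which encodes RIG-I, the other main cytosolic sensor of viral RNA, went the opposite way. It was at -1.43, -1.82, -1.49 and -1.65 in GS cells and at -2.64 to -2.32 in sorted cells, 1.86-fold higher in culture (SE 0.12, adjusted p = 0.00027). Zbp1, a sensor of Z-form nucleic acid, was at -0.49 to 0.01 in GS cells and at -2.52 to -1.50 in sorted cells, 3.48-fold higher in culture (SE 0.22, adjusted p = 0.00015). The 3 sensors did not overlap between cultured and sorted arrays.

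Irf9, the DNA-binding subunit of the type I complex, was 3.15-fold lower in culture (log2 difference -1.66, adjusted p = 7.1e-06), whereas its partner Stat2 was not called (log2 difference -0.03, 95% interval within 2-fold). Parp14, an ADP-ribosyltransferase, was 3.70-fold lower and Usp18, a protease that removes Isg15 and dampens the receptor, 1.76-fold lower, a call lost when only GS cells without FGF5 and WT cells were compared (adjusted p = 0.076). Mx2 was 1.69-fold higher, while Mx1, its neighbour on chromosome 16, was detected on 1 of 4 cultured and 6 of 6 sorted arrays (log2 difference -3.12). Isg15, Oas1a, Oasl1, Oasl2 and Bst2 were not called by their brightest probes. Dimmer second probes of Isg15 and Oas1a were called higher in culture by limma. Their log2 differences were 0.93 (adjusted p = 0.0108, detected on 4 of 6 sorted arrays) and 0.80 (adjusted p = 0.00483). Irf1 was lower in culture (log2 difference -0.29, adjusted p = 0.0291). This call was lost under quantile normalization (adjusted p = 0.22), with the percentile over detected probes (0.232), with no filter (0.0643), between GS cells without FGF5 and WT cells (0.312), and when either GS replicate 1, any WT array or Fgf5-/- replicate 2 or 3 was left out (adjusted p from 0.0522 to 0.113).

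Several type I genes were measured well in sorted cells alone. Rsad2, which encodes viperin, was at -0.90 to -0.22 in sorted cells, detected on 6 of 6 arrays, and at -5.80, -3.88, -6.46 and -4.55 in GS cells, detected on 2 of 4. The log2 difference of -4.64 includes 2 cultured arrays at background and is therefore no exact size. Mx1, Cxcl10 and Oas2 share this limit. Cxcl10 was detected on 6 of 6 sorted and 1 of 4 cultured arrays (log2 difference -2.16). Ifit2 was at background on all 4 cultured arrays and at least 1.37-fold higher in sorted cells. Oas2 was detected on 3 cultured and 1 sorted arrays and was called higher in culture (log2 difference 1.27, adjusted p = 0.0145). That call was lost under quantile normalization (adjusted p = 0.171) and without GS replicate 1 with FGF5 (0.0548) or without it (0.0612). Xaf1, a promoter of apoptosis, gave opposite calls by probe. Its brightest probe was detected on 1 of 4 cultured arrays (log2 difference -1.55), and a second was at -2.86 to -1.59 in culture and at background on all 6 sorted arrays, at least 6.69-fold higher in culture. No direction can be given for Xaf1.

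Of the 6 MHC class I genes, 3 were higher in culture (50%, against 41.9% of all probes) and 1 was lower (16.7%, against 25.7%). A further 2 were not called. The median was 0.37, against 0.26 for all probes. H2-K1 (NM_001001892; chromosome 17, 34133055 to 34133114) was at 2.44, 2.87, 2.47 and 2.86 in GS cells and at 0.40 to 0.83 in sorted cells, 3.92-fold higher in culture (SE 0.14, adjusted p = 9.9e-06). A second H2-K1 probe gave 2.04-fold. B2m was at 2.13 to 2.60 in GS cells and at 0.96 to 1.79 in sorted cells, 1.78-fold higher (SE 0.18, adjusted p = 0.0035). H2-D1 was 1.40-fold higher (adjusted p = 0.0149), a call lost when replicate 2 without FGF5 was left out (adjusted p = 0.0532). Psmb8 was 2.19-fold lower in culture (adjusted p = 0.0015), and Psmb9 (log2 difference 0.06) was not called. Tap1, a subunit of the peptide transporter, was not called either (0.26, 95% interval -0.06 to 0.57), but was called higher in culture with normexp (adjusted p = 0.00342), with the percentile over detected probes (0.0208) and without GS replicate 2 without FGF5 (0.0216). H2 genes are close copies that vary between mouse strains, and their probes may not bind all alleles alike, which was not tested.

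**Figure D5:**
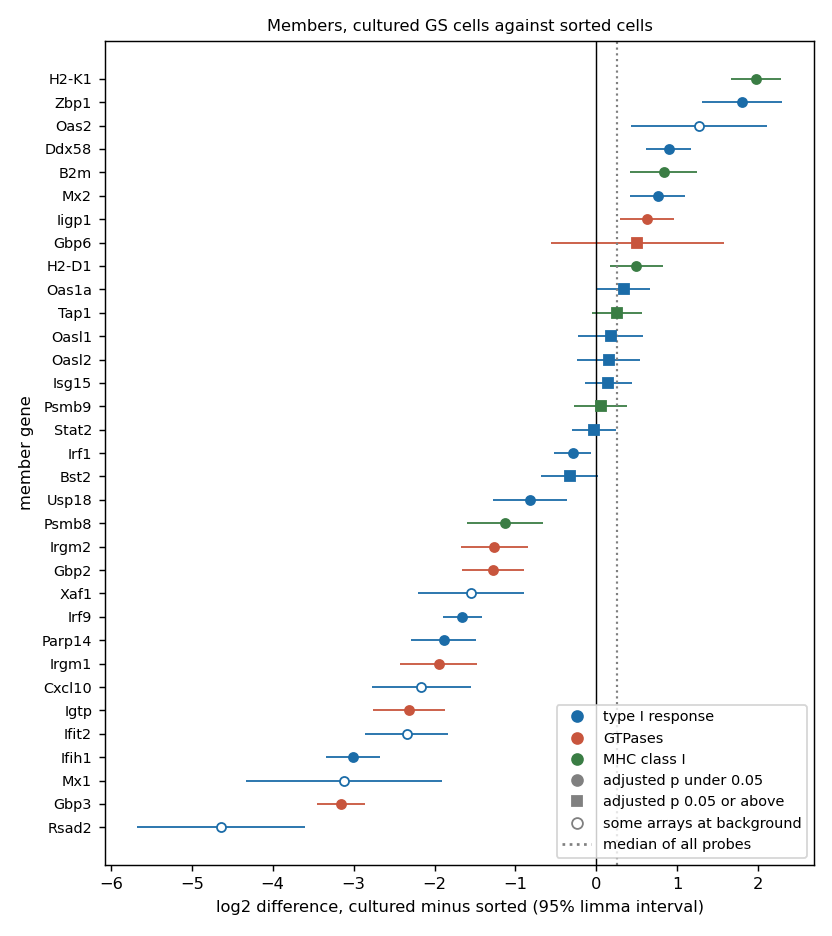
Log2 difference of the 33 tested members, cultured minus sorted, with 95% limma intervals; circles passed an adjusted p of 0.05, squares did not, open symbols were not detected on every array, and the dotted line is the median of all probes. GTPase genes lie mostly at the lower end, and MHC class I genes run from -1.13 (Psmb8) to 1.97 (H2-K1).

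Of the 27 members detected on all 10 arrays, 11 were lower (40.7%) and 7 higher (25.9%) in culture, against 29.8% and 36.2% of the 27223 probes detected on all 10. Without the array labelled Fgf5-/- replicate 1, 25 members were called in place of 24. Among 7 members with 2 probes tested, the probes had the same sign in 5 and opposite signs in Xaf1 and Gbp6.

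The wider pathway was mixed. Of 87 pathway genes tested, 39 were lower in culture (44.8%) and 32 higher (36.8%), against 25.7% and 41.9% of all probes. Receptors, kinases and STATs were lower in 9 of 14 and higher in 3, and further interferon-stimulated genes lower in 15 of 26 and higher in 8. Sensors and adaptors were lower in 6 of 13 and higher in 6, further GTPases lower in 2 of 10 and higher in 6, and further antigen presentation genes lower in 7 of 20 (35%) and higher in 5 (25%). All 4 ligand genes tested were higher in culture. Of these, Ifna1, Ifna2 and Ifnab gave low signals in GS cells, at -4.48 to -2.62, where the lowest signals detected per array were -4.99 to -4.84. Whether their probes tell these genes apart was not tested. Ifnar2 was 3.17-fold lower. The extremes, named after their values were seen, were Ifitm3 and Tmem173 above and Cmpk2 and Rnf213 below. Ifitm3, of the same family as Ifitm2, was at 2.755 to 3.11 in GS cells and at -6.89 to -2.62 in sorted cells, where 4 of 6 arrays detected it. Tmem173, which encodes STING, the adaptor for cytosolic DNA, was 38.1-fold higher in culture. Cmpk2, a mitochondrial nucleotide kinase next to Rsad2 on chromosome 12, was at -2.39 to -2.11 in sorted cells and at background on all 4 cultured arrays, at least 6.45-fold lower. Rnf213, a large ubiquitin ligase, was 10.3-fold lower.

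Markers of other cells that the cultures or the sort could hold differed between cultured and sorted cells in both directions within most lists. The counts below stand against 41.9% of all probes called higher in culture and 25.7% called lower. The log2 of the summed signal of 11 macrophage markers was 1.92 to 2.24 in culture and 0.47 to 1.40 in sorted cells. Of 7 tested, 5 were higher in culture and 1, Mrc1, was lower (2 of 4 cultured arrays detected it), and Lyz2, C1qc and Cd163 were detected on 0 of 10 arrays. For 9 T and NK cell markers the sums were 2.90 to 3.09 and 1.45 to 2.13, and all 5 tested were higher. For 8 endothelial markers they were 3.53 to 4.38 and 1.49 to 2.34, carried by Kdr and Vwf. Pecam1, Kdr and Vwf were higher in culture, Cdh5, Tek and Cldn5 were lower, and Tie1 was detected on 0 arrays. For 11 fibroblast markers they were 4.65 to 5.11 and 5.19 to 5.46, with 4 of 10 tested higher in culture, among them Col1a2 (12.7-fold), and 4 lower. Sertoli markers gave 4.15 to 4.62 and 4.85 to 5.51, with 1 of 7 higher, 5 lower and Amh detected on 0 arrays. Leydig markers gave 2.32 to 2.73 and -1.24 to 0.97, with both tested higher and Cyp11a1 and Lhcgr detected on 0 arrays. Peritubular markers gave 0.50 to 1.06 and -0.44 to 0.01, with 3 of 4 higher and 1 lower.

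The sum over 12 markers of undifferentiated spermatogonia was 7.35 to 7.39 in culture and 7.53 to 7.75 in sorted cells and is set by the brightest probes, such as Zbtb16. Of the 12, 7 were lower in culture (58.3%, against 25.7% of all probes) and 2 were higher (16.7%, against 41.9%). The lower ones included Etv5 (11.3-fold), Cdh1 (8.91-fold), Gfra1 (8.08-fold) and Ret (4.31-fold). The part of other cells, or of the state of the germ cells, in the differences of the members was not tested.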

How the data were processed

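Cy3-labelled RNA of 10 samples had been hybridized to Agilent whole mouse genome 8x60K arrays. The authors deposited scanner output from Feature Extraction (10.7.1.1 per the file headers, 10.7.3.1 per the labels), whose background-subtracted intensity values were used, and a table of log2 values made in GeneSpring with signals under 1 set to 1 and a shift to the 75th percentile; the latter differed from log2 of the former by 1 constant per array (within 0.01) and served as an alternative.

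Here, intensities were floored at 1, spots flagged as uneven or as outliers were left out (117 to 205 per array), log2 values of a probe's spots were averaged, and the 75th percentile over non-control spots was subtracted. A probe was tested if each array of 1 or more groups had it well above background, with limma 3.58.1 in R 4.3.3 (lmFit, eBayes, two-sided) and the Benjamini-Hochberg adjustment over all tested probes at 0.05. Each experiment was fitted alone, and all 4 groups together for cultured against sorted. Where one side was at background on all its arrays, a lower bound against the lowest signal detected per array is given. The procedure was tested on simulated data. Probe coordinates are those of the files (mm9), and promoter windows are from RefSeq (GRCm38.p6).

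Members and lists were chosen with earlier results of these data known. Every member may be named; values on each array are given for members called or 2-fold different in either experiment, the 3 brightest of each group and the 3 largest differences between cultured and sorted cells in each direction among members detected on all arrays; values of further members were chosen after they were seen. Pathway genes are named if called or 2-fold different in either experiment, as are all Gbp genes. Ligand genes are named in addition. Pathway genes with the widest gaps between replicate numbers, or between cultured and sorted cells, were chosen after their values were seen. Alternatives were quantile normalization, normexp with an offset of 50, the authors' log2 table, the percentile over detected probes, a floor of 16, flagged spots kept, no filter or a stricter one, an intensity trend, the mean of a gene's probes, the replicate number as a block, each array left out and, for cultured against sorted, only GS cells without FGF5 against WT. For the pathway counts they were chosen after seeing the data.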

Additional observations from a re-analysis of the deposited data

How the results depend on the processing

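Under all alternatives limma called 0 members and 0 pathway genes in GS cells with against without FGF5 and in sorted Fgf5-/- against WT cells. In cultured against sorted cells, 18 (stricter filter) to 26 members were called under the alternatives, with 22 to 25 members and 67 to 74 pathway genes when 1 array was left out. Without 1 array, the median differences in culture ran from -0.29 to -0.01 (type I), -0.22 to -0.03 (GTPases) and -0.03 to 0.18 (MHC class I), those in sorted cells from -0.06 to 0.08, -0.13 to 0.19 and -0.19 to 0.05, and those of cultured against sorted cells from -0.36 to -0.28, -1.41 to -1.24 and 0.31 to 0.43. With 1 array left in a group, that array is assumed to vary like the others. The median of all probes in cultured against sorted cells moved from 0.26 to 0.13 under quantile normalization and to 0.41 with the percentile over detected probes. Under the latter, the GTPase median was -1.13 and the MHC class I median 0.52. With probes detected on all arrays alone, which leaves 14 type I genes, their median was 0.0582, against 0.0813 for all such probes. With the mean of a gene's probes Xaf1 turned to 1.5, since its second probe enters. Of the 33 members, 24 kept their call and direction under every alternative that tested them. Calls of Oas2, Usp18, H2-D1 and Irf1 were lost under at least 1, and Isg15, Oas1a, Bst2 and Tap1 gained one. With the mean of a gene's probes, the lowest adjusted p of its probes was taken. Isg15 and Oas1a thus gained a call there from the second probe. The cause of the other changes was not tested. Equal replicate numbers correlated in deviations from the group means in culture (r = 0.64 over probes, 2 pairs only) and at -0.42, -0.16 and -0.15 in sorted cells, where the samples share only a number; in culture, 2 pairs do not settle whether the numbers mark a shared origin. With the replicate block 0, 0 and 24 members were called in the 3 comparisons. Small signals near background limit the type I group most.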
